A study of Homo sapiens with 6 samples.

Results

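The AP-1 family of transcription factors was followed in 143B cells, a human osteosarcoma line. The 10 members are FOS, FOSB, FOSL1 and FOSL2 of the FOS family, JUN, JUNB and JUND of the JUN family, and the related factors ATF3, BATF3 and JDP2. They were taken by gene symbol from the 58825 genes of the deposited table, and all 10 were found once and passed the filter on low counts that left 18910 genes for testing.

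The control group is 3 libraries of 143B cells given a negative control siRNA, and the other group is 3 libraries of 143B cells given a siRNA against SIGLEC15. All 6 cultures grew in DMEM with 10% fetal bovine serum, took 80 nmol/L siRNA through the HiPerFect reagent at high confluence, and were harvested 36 h later, per the labels. Both groups thus share serum, transfection and reagent, and the series uses 1 cell line. Poly(A) RNA was read, so protein and phosphorylation were not measured. The labels do not say whether a group's 3 libraries are 3 separate cultures, so a p-value here reflects the spread among libraries, possibly technical.

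AP-1 is a dimer of basic leucine zipper proteins that binds the palindromic DNA element TGACTCA and, more loosely, the element TGACGTCA of the CREB and ATF factors. JUN proteins can pair with themselves or with FOS proteins, whereas FOS proteins need a JUN partner. FOS, FOSB, JUN, JUNB and ATF3 are immediate early genes that growth factors and stress switch on through MAP kinases, while FOSL1 lies downstream of sustained ERK signalling and is abundant in many invasive tumour lines. In bone, FOS drives osteosarcoma in mice when overexpressed, and FOSL1 and FOSL2 act in osteoblast differentiation and matrix formation.

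Several members carry AP-1 or CRE elements of their own near their start sites, and these are shown as background. Whether they have a part in any difference between the groups was not tested. RefSeq promoters (GRCh38.p14, 250 bases before to 50 bases after the start) matched 8 of the 10 members, with 11 start sites; FOSL1 and BATF3 had no match. Each motif was searched on both strands. The 30-base windows below run 5′ to 3′ on the gene's strand, with the motifs in capitals.
JUN, chr1:58784089-58784118, minus strand: ggggTGACATCAtgggCTATTTTTAggggt
JUN, chr1:58784215-58784244, minus strand: gcagcggagcaTTACCTCAtcccgtgagcc
ATF3, chr1:212565273-212565302, plus strand: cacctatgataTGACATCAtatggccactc
JUND, chr19:18281804-18281833, minus strand: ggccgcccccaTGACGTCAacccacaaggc
FOS, chr14:75278752-75278781, plus strand: tggttgagcccgTGACGTttacactcattc
FOSB, chr19:45467924-45467953, plus strand: gcaaggggcgggTGACGTaagcaggggggc
FOSL2, chr2:28392851-28392880, plus strand: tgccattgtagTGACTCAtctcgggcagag

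Of the 8 matched members JUN and ATF3 held TGACATCA, which begins 67 bases before the RefSeq start of JUN and 123 bases before a RefSeq start of ATF3. That motif was found in 2.61% of 34943 promoters of this length. JUN also held the variant TTACCTCA, 186 bases before its start (0.715% of promoters), and the MEF2-type element CTATTTTTA, 55 bases before it (0.455%). The motifs were picked before the search rather than found by it, so these shares are a description and show no enrichment. Each share is per promoter, while the 8 matched members had 11 start sites. Both JUN windows lie inside the longer gene model that the deposited table gives for JUN.

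JUND alone held the full TGACGTCA (1.84% of promoters), 200 bases before its start. FOSL2 alone held TGACTCA (4.96%), which begins 4 bases after its start base. The shorter TGACGT, which includes TGACGTCA and was found in 7.97% of promoters, stood in 5 members, FOS, FOSB, FOSL2, JUND and JDP2; in FOS and FOSB it begins 64 and 60 bases before the start. A match describes these letters in these windows and does not show binding.

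Members also differ in AU-rich elements of the 3′ UTR, the signals by which immediate early mRNAs are made short-lived. In the GENCODE 29 coding transcript with the longest 3′ UTR, FOS had 5 ATTTA pentamers in 806 bases, 6.2 per kilobase, more than 95.5% of 13724 tested genes. JUNB had 4 per kilobase, BATF3 2.68, ATF3 2.46, JUN 2.33 and FOSL2 1.85, so 6 of the 10 members lay above the median of 1.66 over all these genes. JUND (1.47), FOSB (1.38), FOSL1 (1.2) and JDP2 (0.647) lay below it, so the immediate early members stood on both sides. The nonamer TTATTTATT, which contains ATTTA, stood in 2 members, FOS and FOSL2, and in 9.45% of the genes; the FOS and FOSL2 sites are shown with it in capitals.
FOS: tgtttttaatTTATTTATTaagatggattc
FOSL2: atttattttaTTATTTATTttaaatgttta

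The libraries held 57966691 to 67655254 gene counts. SIGLEC15, the gene targeted, was read at 0.169 to 0.36 CPM (counts scaled by library size and TMM) in control libraries, against 0.0895 to 0.182 CPM after the SIGLEC15 siRNA, and did not pass the test (edgeR log2 fold change -0.82, SE 0.598, adjusted p = 0.529), so the values below compare the 2 siRNAs as labelled. Of the markers for other cell types, 0 of 6 immune and 0 of 4 endothelial genes reached 1 FPKM in any library, and PTPRC, CD3E, LYZ and CDH5 had no counts. Of 5 epithelial markers 3 reached 1 FPKM, mainly KRT18, while CDH1 had none; their summed level was 210.5 to 254.6 FPKM in the control group and 222.3 to 242.4 in the other. Of 6 mesenchymal markers 4 reached 1 FPKM in at least 1 library, while THY1 had no counts. Of 9 osteoblast-lineage markers 6 reached it, RUNX2 only after the SIGLEC15 siRNA, while ALPL stayed below that level and IBSP had no counts. RUNX2, the master factor of the osteoblast lineage, had 0.352, 0.365 and 0.265 FPKM in control libraries, against 2.03, 0.373 and 1.53 FPKM after the SIGLEC15 siRNA (edgeR log2 fold change 2.00, adjusted p = 0.113), so replicates 1 and 3 stood high and replicate 2 near the control level. The summed osteoblast markers, mainly SPARC, were 82.65 to 87.92 FPKM in the control group and 129.6 to 132 FPKM after the SIGLEC15 siRNA, and their part in the results below was not tested.

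In control cells the mRNA of the AP-1 members was mainly that of FOSL1 and JUN. These levels do not give the make-up of the AP-1 protein dimers. The deposited FPKM values are divided by a length for each gene. That length is not stated, and the order and shares of the members depend on it. On this scale FOSL1 (ENSG00000175592, chromosome 11, 65892049 to 65900526, minus strand), the FRA1 protein of invasive tumours, stood at 134.8, 129.1 and 138.3 in control replicates 1, 2 and 3. A higher mean was held by 254 genes. FOSL1 made up 94.8% ± 0.417 (SD, n = 3) of the FOS family FPKM in the control group, so FOS and FOSB, the members that gave the family its name and its role in bone tumours, were minor in mRNA.

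JUN (ENSG00000177606, chromosome 1, 58780788 to 58784327, minus strand), the strongest activator of the JUN proteins, was next at 48.54, 55.64 and 54.72 FPKM. JUND, the most constitutive JUN protein, had 13.86 FPKM ± 0.601 and JUNB, which often acts against JUN, 12.66 ± 2.07 (SD, n = 3 each); their values overlapped and their order is not settled. JDP2, a repressor that recruits histone deacetylase to AP-1 sites, had 7.24 ± 1.98 and FOSL2, the FRA2 protein, 6.22 ± 0.478, again with overlap. BATF3, a short factor without a transactivation domain, had 3.71 ± 2.09. ATF3, a stress-induced factor that represses many promoters, had 1.03 ± 0.0849 and FOS 0.962 ± 0.144, with overlap, and FOSB was lowest at 0.126 ± 0.117.

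After the SIGLEC15 siRNA the order was the same but for the lowest positions, where FOS (0.602 ± 0.184) came before ATF3 (0.561 ± 0.118, SD, n = 3 each), with overlapping values. Ranked by CPM instead, FOSL1 and JUN stayed at the top, and JDP2 and FOSL2 came before JUND and JUNB, since CPM does not correct for length.

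**Figure D1:**
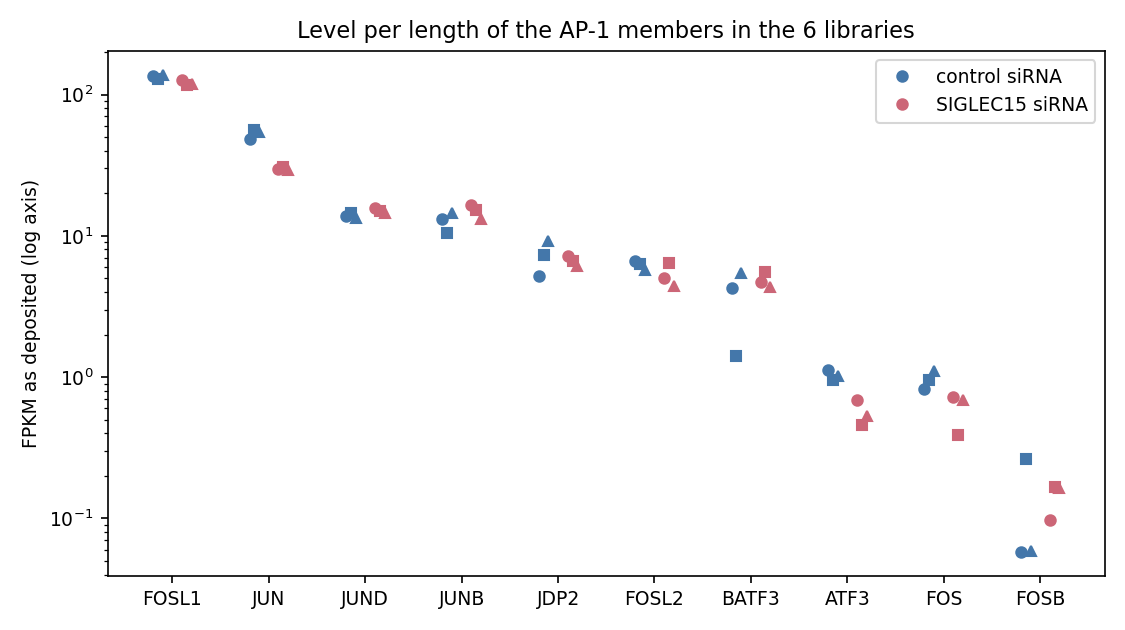
Deposited FPKM (log axis) of the 10 members in 3 control siRNA libraries (blue) and 3 SIGLEC15 siRNA libraries (red); circle, square and triangle are replicates 1, 2 and 3. FOSL1 lies between 116.9 and 138.3 FPKM in all 6 libraries, and FOSB stays below 0.262.

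Of the 10 members 1 changed: JUN fell. Over all 18910 genes tested, 4.65% were called at an edgeR adjusted p under 0.05, 2.43% as lower and 2.22% as higher, so 1 of 10 is near the background and says nothing about the family as a set. Control and SIGLEC15 siRNA values lay fully apart in 4 members, JUN, ATF3 and FOS with lower values and JUND with higher ones after the SIGLEC15 siRNA, where 26.6% of all tested genes were apart in either direction and 13.7% toward lower values. The median log2 fold change of the 10 was -0.134, against -0.0064 over all tested genes.

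**Figure D2:**
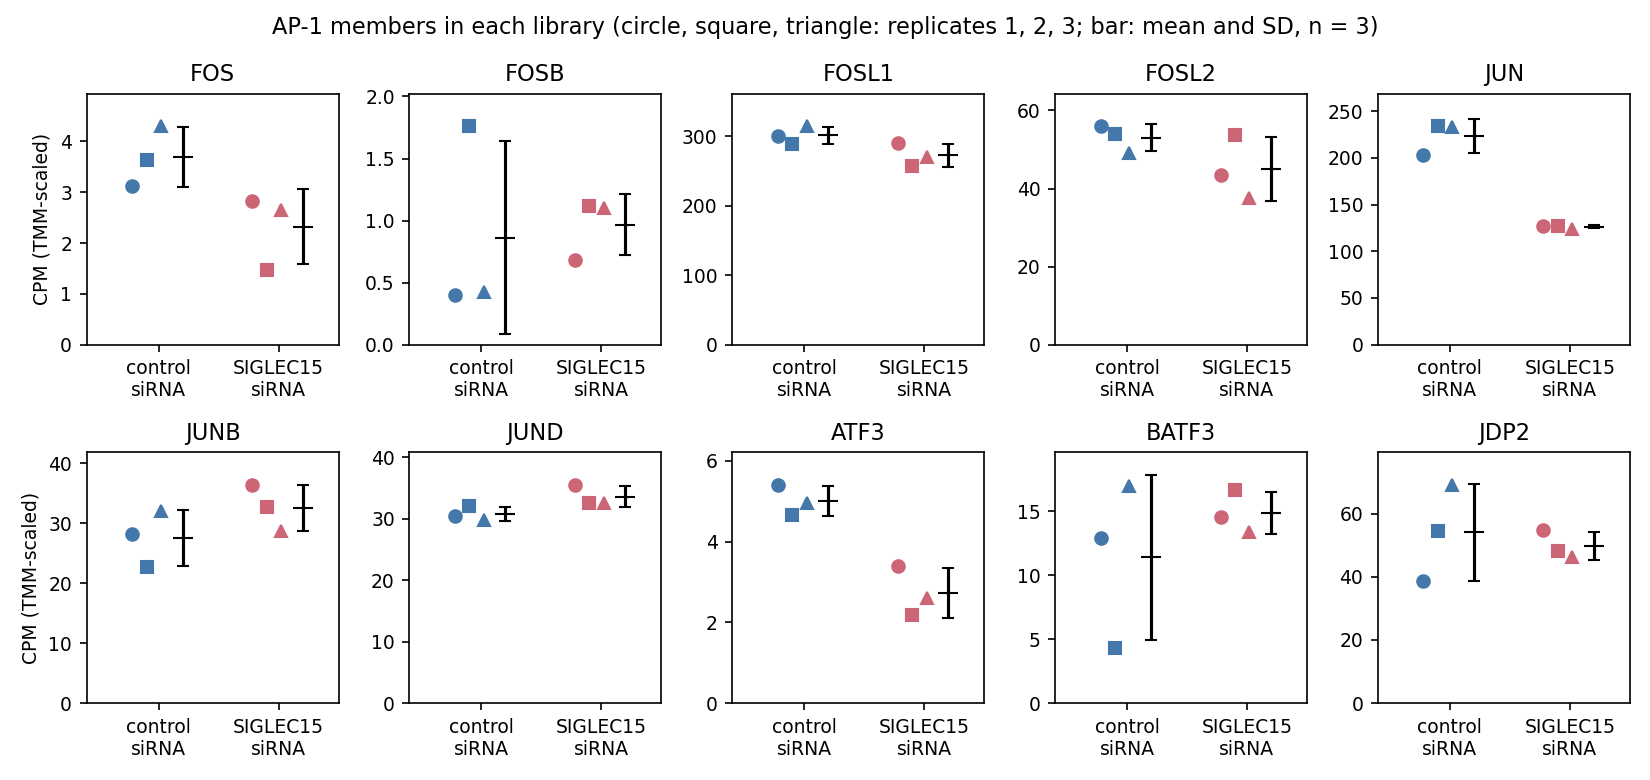
CPM of each member, with circle, square and triangle for replicates 1, 2 and 3 of the control siRNA (blue) and SIGLEC15 siRNA (red) groups, and bars for the mean and SD (n = 3). JUN drops from between 202.7 and 233.9 to between 124.3 and 127.4 CPM, while BATF3 and FOSB have 1 control library, replicate 2, far from the other two.

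In the JUN family, JUN was read at 202.7, 233.9 and 233.4 CPM in control replicates 1, 2 and 3 and at 127.4, 127.4 and 124.3 CPM in SIGLEC15 siRNA replicates 1, 2 and 3. Every SIGLEC15 siRNA library lay below every control library. In edgeR the log2 fold change of JUN came to -0.82 (95% interval -0.997 to -0.646, SE 0.0738, adjusted p = 0.00396), which ranked 64 by p among all tested genes. With bulk RNA, fewer JUN-expressing cells and less JUN mRNA per cell cannot be told apart.

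After the SIGLEC15 siRNA the coefficient of variation of JUN was 1.43%. The 2864 tested genes within 2-fold of its mean had a median of 6.59%, and 3.7% of them had a lower value than JUN. In the control group the coefficient of JUN was 8.01%, against a median of 5.74% for 1499 genes of like level. Such values were computed for every member in both groups, each from 3 libraries, so a small one may arise by chance.

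JUNB had 28.19, 22.68 and 32 CPM in control replicates 1, 2 and 3 and 36.45, 32.69 and 28.67 CPM in SIGLEC15 siRNA replicates 1, 2 and 3. The groups overlapped, and the log2 fold change of 0.24 (edgeR adjusted p = 0.467, SE 0.153) has a 95% interval of -0.126 to 0.604. JUND had 30.37, 32.06 and 29.82 CPM in control libraries, against 35.53, 32.57 and 32.56 CPM after the SIGLEC15 siRNA. The JUND groups did not overlap, yet the difference was small, with a log2 fold change of 0.13 (edgeR adjusted p = 0.48, SE 0.0829, 95% interval -0.0716 to 0.323).

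The make-up of the JUN family mRNA therefore shifted. JUN was 64.4%, 69.1% and 66.3% of the summed JUN, JUNB and JUND FPKM in control replicates 1, 2 and 3, and 48%, 50.5% and 51.4% after the SIGLEC15 siRNA. The share of JUNB went from 15.9% ± 2.6 to 24.9% ± 1.81 and that of JUND from 17.5% ± 1.2 to 25.2% ± 0.591 (SD, n = 3 each). The summed FPKM of the family was 79.49 ± 3.67 in the control group and 60.1 ± 2.7 in the other; shares sum to a constant, so a lower JUN share alone lifts the other two.

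**Figure D3:**
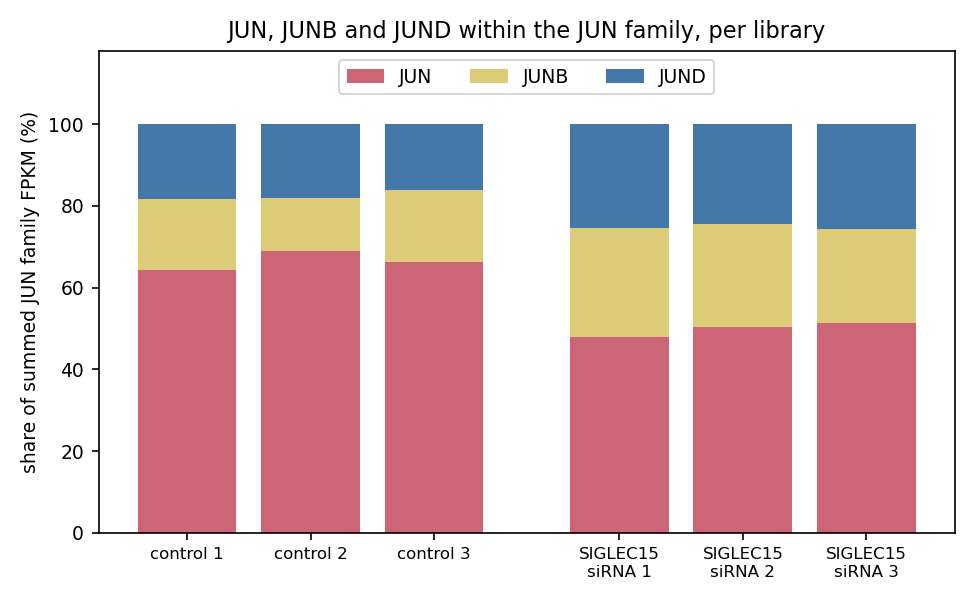
Stacked bars of the share of JUN, JUNB and JUND in the summed FPKM of the JUN family, in percent, for each of the 6 libraries. JUN takes 64.4% to 69.1% in the control libraries and 48% to 51.4% in the SIGLEC15 siRNA libraries.

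Ratios within a library, which cancel its scaling, put JUN against its partners. The FPKM ratio of JUN to JUNB was 3.72, 5.33 and 3.77 in control replicates 1, 2 and 3 and 1.81, 2.02 and 2.24 after the SIGLEC15 siRNA, a 2.09-fold lower ratio. The ratio of JUN to JUND was 1.92-fold lower and that of JUN to FOSL1 1.59-fold lower, the latter from 0.36, 0.431 and 0.396 to 0.234, 0.264 and 0.245. In these 3 ratios the groups did not overlap, and the exact two-sided permutation test gave p = 0.1 for each (0.167 after Benjamini-Hochberg adjustment over the 5 ratios compared), the lowest that this test can reach with 3 libraries a group. All 3 have JUN as numerator, so they restate its lower level and are not separate results. How often ratios of other genes lie apart was not computed.

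The other 2 ratios overlapped between groups. FOSL1 to FOSL2 had a mean log2 ratio of 4.43 ± 0.148 and 4.54 ± 0.31, and ATF3 to JUN one of -5.68 ± 0.223 and -5.76 ± 0.319 (SD, n = 3 each; exact permutation p = 0.6 and 0.7).

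In the FOS family no member passed the test. FOSL1, the main FOS protein mRNA of these cells, had 300, 289.3 and 314.5 CPM in control replicates 1, 2 and 3 and 289.8, 257.4 and 269.9 CPM in SIGLEC15 siRNA replicates 1, 2 and 3. The groups overlapped at control replicate 2 and SIGLEC15 siRNA replicate 1, and the log2 fold change of -0.15 (edgeR adjusted p = 0.314, SE 0.0678) has a 95% interval of -0.307 to 0.016. A change of FOSL1 as large as that of JUN thus lies outside the interval.

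FOSL2 had 55.95, 54.07 and 49.12 CPM in control libraries, against 43.57, 53.74 and 37.63 CPM after the SIGLEC15 siRNA (log2 fold change -0.24, SE 0.138, edgeR adjusted p = 0.42). SIGLEC15 siRNA replicate 2 stood at the control level and the other two below it. FOSL2 shares 2225 and 296 bases with 2 genes named AC104695, neither of which passed the filter on low counts.

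FOS (ENSG00000170345, chromosome 14, 75278826 to 75282230, plus strand), the founding member and classical serum response gene, was weak in all libraries, with counts of 194, 215 and 263 in the control libraries, against 187, 87 and 178 after the SIGLEC15 siRNA. In replicate order this made 3.13, 3.64 and 4.3 CPM against 2.83, 1.48 and 2.65 CPM. The groups did not overlap, but SIGLEC15 siRNA replicate 2 was far below the other two, and the log2 fold change of -0.67 (edgeR adjusted p = 0.26, SE 0.279; unadjusted p = 0.0493) was -0.43 without it.

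FOSB, which can form a truncated stable protein in chronically stimulated cells, had 25, 104 and 26 counts in control libraries, against 45, 66 and 74 after the SIGLEC15 siRNA. Its log2 fold change of 0.17 (edgeR adjusted p = 0.925, SE 0.618) depended on control replicate 2: it was 1.22 without that library and -0.17 and -0.16 without control replicates 1 and 3. All 7185 bases of FOSB in the table lie inside ERCC1, a DNA repair gene on the opposite strand that fell, with 74.18 CPM ± 4.61 in control libraries and 57.43 CPM ± 1.3 after the SIGLEC15 siRNA (SD, n = 3 each; edgeR adjusted p = 0.0393, a call lost when any 1 library was left out). Whether reads were counted by strand is not stated, so FOSB and ERCC1 reads may not be separated.

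ATF3 (ENSG00000162772, chromosome 1, 212565334 to 212620772, plus strand), which pairs with JUN proteins and is itself an immediate early and stress gene, had 5.41, 4.67 and 4.97 CPM in control replicates 1, 2 and 3 and 3.41, 2.19 and 2.61 CPM in SIGLEC15 siRNA replicates 1, 2 and 3. Every SIGLEC15 siRNA library lay below every control library. The log2 fold change of -0.87 (SE 0.199, 95% interval -1.35 to -0.4) was as low as that of JUN, but it did not pass the edgeR threshold (adjusted p = 0.062). The ATF3 counts were 129 to 335 per library. DESeq2, which called 17.1% of its genes, called 2 members, JUN and ATF3 (DESeq2 adjusted p = 0.000349 for ATF3).

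BATF3, a partner of JUN best known from dendritic cells, had 12.88, 4.32 and 16.98 CPM in control libraries, against 14.54, 16.64 and 13.37 CPM after the SIGLEC15 siRNA. Control replicate 2, with 255 counts where the other control libraries had 798 and 1039, stood apart. The log2 fold change was 0.38 (SE 0.442, edgeR adjusted p = 0.717) with it and -0.01 without it. The coefficient of variation of BATF3 in the control group was 56.7%, where 3811 genes of like level had a median of 10.4%.

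JDP2 had 38.57, 54.57 and 69.14 CPM in control libraries, against 54.69, 48.17 and 46.12 CPM after the SIGLEC15 siRNA (log2 fold change -0.12, SE 0.204, edgeR adjusted p = 0.812). Its control values spread widely, with a coefficient of variation of 28.3% against a median of 7.22% for genes of like level, and the SIGLEC15 siRNA values fell within them. Without control replicate 3 the log2 fold change was 0.09. Its first 26 bases overlap AF111167, an opposite-strand gene at 2.99 and 2.96 CPM in the groups (edgeR adjusted p = 0.979).

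**Figure D4:**
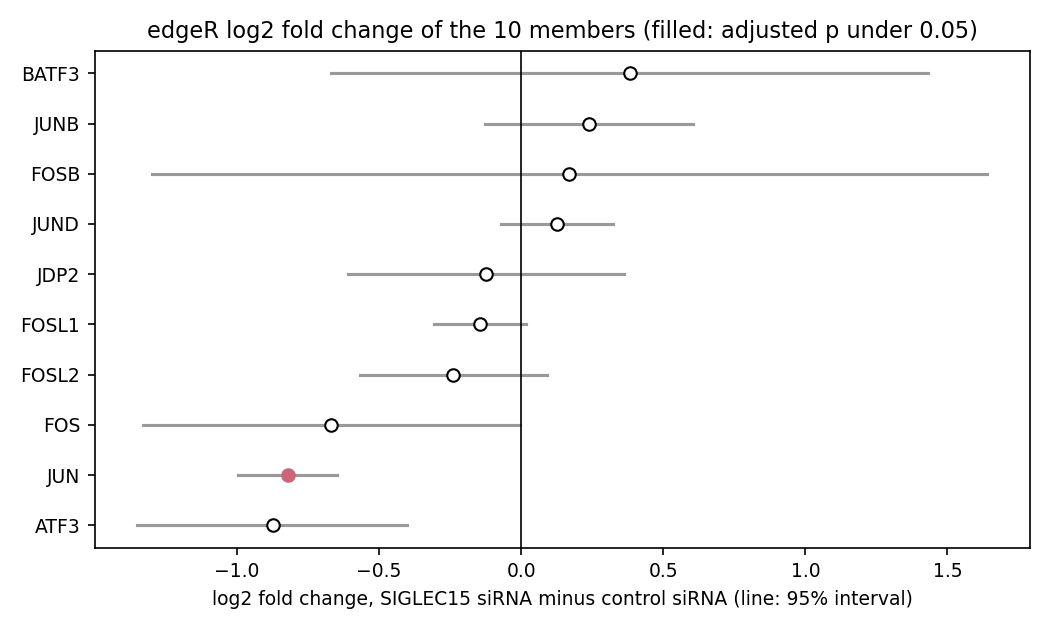
Log2 fold change (SIGLEC15 siRNA minus control siRNA, edgeR) of the 10 members with 95% intervals; a filled point marks an adjusted p under 0.05. JUN, at -0.82, is the filled point, ATF3 at -0.87 has a wider interval, and the intervals of BATF3 and FOSB span more than 2 log2 units.

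**Figure D5:**
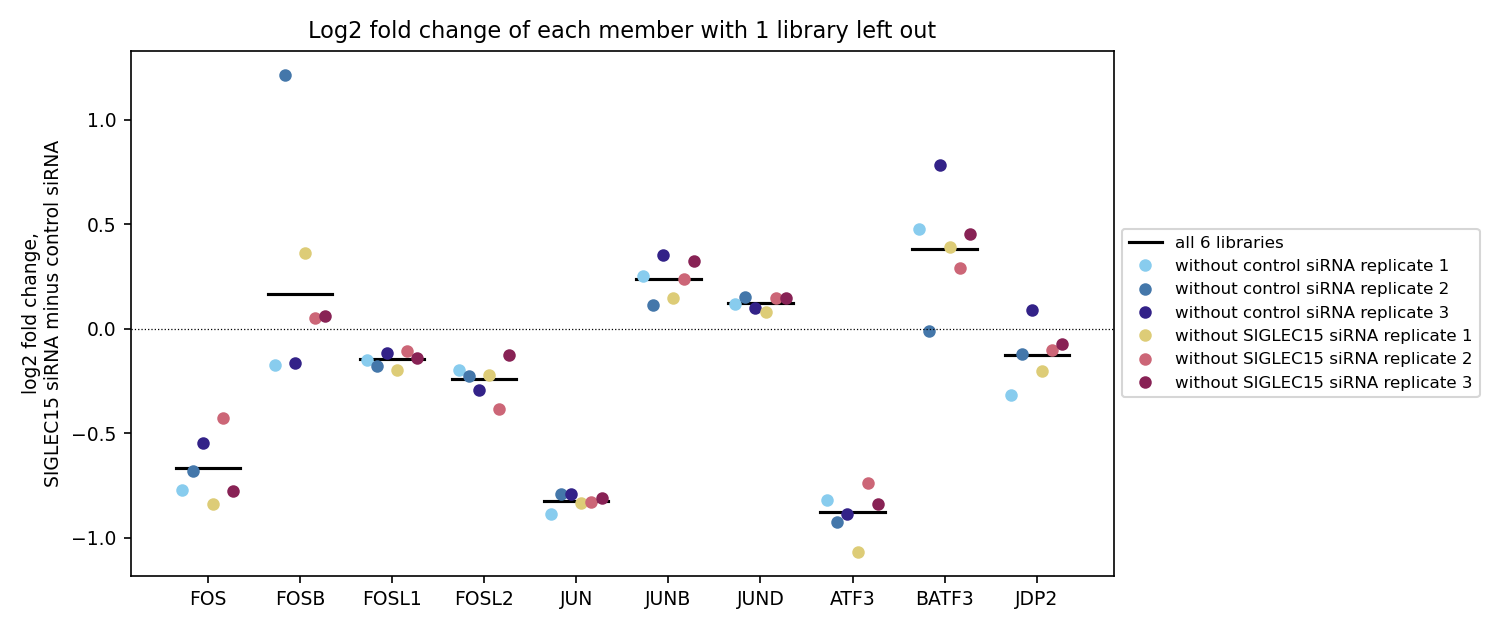
Log2 fold change of each member with all 6 libraries (black line) and with each library left out in turn (coloured points). JUN stays between -0.89 and -0.79, while FOSB moves from -0.17 to 1.22 and BATF3 from -0.01 to 0.78.

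The gene lists around the family were chosen with earlier results of these data known. Counts from them are therefore descriptions, and no list was tested as a set. The shares over all tested genes also take in genes with low counts. For 29 tested kinases of the ERK, JNK and p38 cascades and their outputs the median log2 fold change was 0.0491. Of these 29 kinases 1 was called, a share near the 4.65% of all tested genes. This was MAP3K5, the stress-activated kinase ASK1 at the head of JNK and p38 signalling, which rose 1.5-fold, with a mean of 10.6 CPM ± 0.132 in control libraries and 15.88 CPM ± 0.936 after the SIGLEC15 siRNA (SD, n = 3 each). The call was lost when any 1 of the 6 libraries was left out.

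Of 15 tested transcription factors known to act on the FOS and JUN promoters 1 rose and 2 fell, where 2.22% of all tested genes rose and 2.43% fell, and the median log2 fold change was -0.067. STAT3, which acts on the FOS promoter after cytokines, rose 1.54-fold from 77.08 CPM ± 2.93 to 118.4 CPM ± 3.29. SRF, which binds the serum response element of immediate early genes, fell 1.35-fold from 57.3 CPM ± 4.3 to 42.38 CPM ± 2, and ETS1 fell 1.23-fold (SD, n = 3 each). The SRF and ETS1 calls were lost when any 1 library was left out.

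Of 29 tested other bZIP factors that can pair with AP-1 proteins or share their sites 3 rose and 1 fell (2.22% and 2.43% over all tested genes), with a median log2 fold change of 0.0099. CEBPG, a partner of ATF4, fell 1.55-fold from 127.3 CPM ± 9.27 to 82.07 CPM ± 2.37. CEBPA, a factor of myeloid and fat cell differentiation, rose 1.83-fold from 3.55 to 6.51 CPM, and NFE2L3, a relative of the oxidative stress factor NRF2, rose 1.32-fold. The CEBPA call was lost when any 1 library was left out, and that of NFE2L3 unless it was control replicate 1.

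Of 23 tested genes for turnover and restraint of AP-1 mRNA and protein 2 rose and 2 fell (2.22% and 2.43% over all tested genes), with a median log2 fold change of 0.121. KHSRP, which binds AU-rich elements and hastens mRNA decay, fell 2.34-fold from 263.7 CPM ± 6.94 to 112.6 CPM ± 1.95, and DUSP1, the phosphatase that switches off JNK and p38, fell 2.96-fold (SD, n = 3 each). FBXW7, the ubiquitin ligase subunit that targets JUN protein, rose 1.61-fold from 18.22 CPM ± 2.67 to 29.4 CPM ± 3.55 and DUSP8, a JNK phosphatase, 1.72-fold. The FBXW7 and DUSP8 calls were lost when any 1 library was left out.

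Among 36 tested genes known as AP-1 targets 4 rose and 4 fell (2.22% and 2.43% over all tested genes), with a median log2 fold change of -0.0008. Among genes with a mean FPKM of at least 1 that median was -0.0869, and the median over all genes under that filter was not computed. EDN1, the vasoactive peptide endothelin 1 with an AP-1 site in its promoter, fell 4.02-fold from 16.74, 18.89 and 14.12 CPM in control replicates 1, 2 and 3 to 3.95, 3.33 and 5.1 CPM. FST, the activin antagonist follistatin, fell 3.95-fold, and IL1B, an inflammatory cytokine, 2.03-fold. SPARC, a matrix protein of bone, rose 1.75-fold from 345.9 CPM ± 6.34 to 604 CPM ± 7.68, PTGS2, the inducible cyclooxygenase, 2.34-fold, CTSL, a lysosomal protease, 1.29-fold and CCND1, cyclin D1, 1.25-fold (SD, n = 3 each). The IL1B, CTSL and CCND1 calls were lost when any 1 library was left out, and that of FST without control replicate 1 or 2.

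Of 31 other immediate early genes tested 1 rose and 8 fell (2.22% and 2.43% over all tested genes). Their median log2 fold change was -0.206, or -0.41 among genes with a mean FPKM of at least 1. The median over all genes under that filter was not computed. With 1 library left out at a time, the median of the list ran from -0.3195 to -0.1182. This list too was chosen with earlier results known, so these counts describe it and do not test it. EGR1, a zinc finger factor of the same serum response, fell 2.44-fold, its mean going from 29.95 CPM ± 2.01 down to 12.29 CPM ± 0.31, PPP1R15A, a stress-induced phosphatase subunit, 1.65-fold from 216 CPM ± 12.6 to 130.7 CPM ± 5.35, DUSP6, the ERK phosphatase, 1.62-fold, and DUSP1 as above. BTG2, an antiproliferative gene, rose 2.49-fold, its mean going from 6.21 CPM ± 0.377 up to 15.47 CPM ± 1.66 (SD, n = 3 each).

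The genes whose pattern over the 6 libraries was most like that of JUN, by Pearson r of log2(CPM + 1) among 9527 genes, were TK2, the mitochondrial thymidine kinase (r = 0.998), DCPS, the scavenger decapping enzyme (r = 0.996), and PTPA, an activator of the phosphatase PP2A (r = 0.995). The likeness covers both the group difference and the lower control replicate 1: TK2 had 12.97, 15.42 and 16.05 CPM in control replicates 1, 2 and 3 and 6.6, 6.37 and 6.7 CPM after the SIGLEC15 siRNA. With 6 libraries in 2 groups, any gene that differs between the groups correlates with JUN, so r is a description.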

How the data were processed

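For each gene and library the authors deposited a whole-number count and, in separate columns, an FPKM value, per the file headers. HISAT, StringTie and edgeR stand in the submitters' processing notes; versions, genome build and strand use: not given in the sources used here. Columns were matched to samples by title, with 0 left over. The test of the counts was that of edgeR 4.0.16 (under R 4.3.3): filterByExpr (minimum count 10, minimum total 15), TMM, a quasi-likelihood F test over all 6 libraries without covariates, and Benjamini-Hochberg adjustment over all 18910 genes at 0.05. Each standard error is the fold change on the log2 scale over the root of F. The fits were also run on simulated counts drawn from edgeR's own model of these data. This was a check of the code and does not bear on the results above. The members and gene lists were chosen with earlier results of these data known. Named are the 10 members, SIGLEC15, genes overlapping a member, up to 4 called genes per direction of each list, and the 3 genes most like each called member (mean CPM of at least 10). Some genes that this rule names are counted in their lists but not reported here. Alternatives were other scalings and filters, DESeq2 1.42.0, limma 3.58.1 on log2 FPKM plus 1 or 0.1, a replicate block, and leaving out each library. Ratios were tested by exact permutation (SciPy 1.17.1).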

Additional observations from a re-analysis of the deposited data

How the results depend on the processing

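JUN kept its direction and call in 13 of 14 alternatives. With the replicate number as a replicate block the edgeR adjusted p of JUN was 0.0616 and 0 members were called. That fit called 50 genes over the whole table, 0 other bZIP factors, 0 kinases, 0 promoter factors, 2 turnover genes, 1 target gene and 2 immediate early genes. Libraries of the same number were not alike in their deviations from the group means (r = -0.0712, 0.00662 and -0.117 for numbers 1, 2 and 3). With 3 libraries a group these r cannot decide whether the numbers pair the libraries. DESeq2 called 2 members, 2917 genes, 8 bZIP factors, 5 kinases, 5 promoter factors and 16 target genes; the cause was not tested. Kinases called were 2 with library totals, 2 after a filter on FPKM means under 1, and 2 under limma-trend with either pseudocount. Without the low-count filter 1 promoter factor and 2 turnover genes were called. Leaving out each library in turn gave 260 to 431 genes, 1 to 1 members, 1 to 2 bZIP factors, 0 to 0 kinases, 1 to 1 promoter factors, 2 to 2 turnover genes and 4 to 5 target genes, with fewer libraries in the fit. Signs turned without 1 library for the log2 fold changes of FOSB (-0.17 to 1.22), BATF3 (-0.0115 to 0.78), JDP2 (-0.32 to 0.0893) and AF111167, which overlaps JDP2 on the opposite strand (-0.1011 to 0.13), and for the log2 ratio differences of FOSL1 to FOSL2 (-0.0105 to 0.281) and ATF3 to JUN (-0.2473 to 0.0713). FOS, FOSB and ATF3 had at most 335 counts per library; the part of depth in their missing calls was not tested.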
